A study of Mus musculus with 4 samples.

Results

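DNA replication and mitosis genes were followed in the ileum of mice given metformin, an oral drug for type 2 diabetes. The group holds 46 genes, named as a list of symbols: 19 of DNA replication, 23 of mitosis, and 4 regulators of the cell cycle (Ccne1, Ccne2, E2f1 and Foxm1) that were put in neither class. Each gene was read by the array probe whose RefSeq accession carries its symbol, and the brightest probe was used where there were several. A gene counted as measured if, in either group, both arrays read its probe well above background. Of the 46 genes, 45 were measured, among 21649 genes and unnamed transcripts tested. Cenpf, a kinetochore protein, was left out because its probe did not meet that rule.

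The samples were total RNA from the ileum of male C57BL/6J mice aged 10 weeks, hybridised as Cy3-labelled cRNA to 4 single-colour arrays. Controls took up 2 arrays and mice dosed by mouth with metformin (1000 mg/kg) the other 2. Neither the length of dosing nor a vehicle is labelled. It is not labelled either whether replicates were different mice, so p-values measure only the spread among these samples, and that spread may be technical. The 4 arrays shared 1 slide and 1 scan, with the controls at slide positions 1 and 2 and the metformin samples at positions 3 and 4, so position and treatment cannot be told apart. The 75th percentile of signal lay between 866.3 and 1454 and the share of probes well above background between 65.17% and 69.12%. No spot was saturated. The metformin 1 sample stood apart from its label. Most markers of ileal enterocytes were low in it and some markers of the proximal small intestine high, so where along the intestine it was taken is in doubt. Medians of the members, of their classes and of the cell cycle and crypt lists are therefore also given without it or on each metformin array. Those of smaller sets of members are given over all arrays only.

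Cells copy their DNA in S phase and divide it in mitosis, and each step has its own set of proteins. Origins are licensed when Cdc6 and Cdt1 load the MCM helicase, which Cdc45 and the GINS complex then activate so that polymerases can copy the opened strands. In mitosis, Cdk1 with its cyclins starts chromosome condensation and spindle assembly, the spindle checkpoint waits for attached kinetochores, and the anaphase-promoting complex (APC/C) ends the phase by marking cyclin B for destruction. In the intestine these genes are expressed mainly by dividing cells of the crypts, the pits between villi that renew the epithelium. Replication genes are known targets of E2F factors, whereas many mitosis genes are controlled through a CHR element (cell cycle genes homology region) near the start, bound by MuvB complexes, and through CCAAT boxes, bound by NF-Y.

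The promoter sequences of the list are given first, since the classes differed in the motifs they carry. RefSeq windows of build GRCm38.p6, from 250 bases before to 50 bases after each annotated start, were at hand for 37 of the 46 genes: 16 replication genes, 19 mitosis genes and 2 regulators. Not in that table were Foxm1, Mcm4, Tpx2, Ccne2, Ccna2, Gins1, Gins2, Kif20a and Aurkb. Each window was searched on both strands for a CHR word, spelled either TTTGAA or in the less usual form TTCGAA. The CCAAT box was searched by its name. The E2F motif was searched as 4 words: the first was TTCCCGC, the next TTCGCGC, then came TTGCCGC, and the last was TTGGCGC. The windows printed are those with the most kinds of match in each class, ties being settled by the smaller unadjusted p. Matches are in capitals, and on the lower strand a CCAAT box reads ATTGG and the usual CHR word reads TTCAAA.

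Among mitosis genes, Mki67 (chr7:135716330-135716629, minus strand), Cdk1 (chr10:69352863-69353162, minus strand) and Ttk (chr9:83834439-83834738, plus strand) each carried a CHR word together with CCAAT boxes.
Mki67: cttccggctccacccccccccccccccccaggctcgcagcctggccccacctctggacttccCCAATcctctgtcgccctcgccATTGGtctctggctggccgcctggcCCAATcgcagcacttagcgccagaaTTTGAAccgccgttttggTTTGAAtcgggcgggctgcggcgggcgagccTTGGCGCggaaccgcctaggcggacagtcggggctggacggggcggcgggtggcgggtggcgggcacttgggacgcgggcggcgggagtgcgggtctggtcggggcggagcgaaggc
Cdk1: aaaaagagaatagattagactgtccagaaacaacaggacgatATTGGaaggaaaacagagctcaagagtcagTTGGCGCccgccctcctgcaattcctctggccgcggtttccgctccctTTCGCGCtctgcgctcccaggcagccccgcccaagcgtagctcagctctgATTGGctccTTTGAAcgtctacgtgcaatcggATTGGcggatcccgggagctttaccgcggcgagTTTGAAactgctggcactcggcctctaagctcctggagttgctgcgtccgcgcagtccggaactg
Ttk: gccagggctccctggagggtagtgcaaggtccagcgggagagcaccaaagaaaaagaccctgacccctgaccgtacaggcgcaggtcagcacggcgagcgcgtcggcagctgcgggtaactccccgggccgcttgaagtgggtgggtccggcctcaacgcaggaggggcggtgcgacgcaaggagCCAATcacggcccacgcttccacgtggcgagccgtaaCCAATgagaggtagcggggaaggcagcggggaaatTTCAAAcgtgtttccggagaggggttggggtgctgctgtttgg

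Mki67 had 2 CHR words, whose first bases lay at -116 and -98 from the start, with 3 CCAAT boxes upstream of them. In Cdk1 the CHR words lay at -71 and -15, and in Ttk the CHR word lay just downstream of the start, at 8, after CCAAT boxes at -65 and -28. Each of the 3 windows therefore has at least 1 CCAAT box upstream of a CHR word.

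Among replication genes, Mcm7 (chr5:138171834-138172133, minus strand), Prim1 (chr10:128014965-128015264, plus strand) and Pola1 (chrX:93632106-93632405, minus strand) carried E2F words.
Mcm7: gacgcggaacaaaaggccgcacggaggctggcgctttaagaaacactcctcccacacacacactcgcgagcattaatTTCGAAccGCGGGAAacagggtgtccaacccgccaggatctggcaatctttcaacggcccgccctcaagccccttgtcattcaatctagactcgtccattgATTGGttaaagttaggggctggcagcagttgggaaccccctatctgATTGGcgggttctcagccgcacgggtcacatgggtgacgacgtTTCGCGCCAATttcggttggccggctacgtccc
Prim1: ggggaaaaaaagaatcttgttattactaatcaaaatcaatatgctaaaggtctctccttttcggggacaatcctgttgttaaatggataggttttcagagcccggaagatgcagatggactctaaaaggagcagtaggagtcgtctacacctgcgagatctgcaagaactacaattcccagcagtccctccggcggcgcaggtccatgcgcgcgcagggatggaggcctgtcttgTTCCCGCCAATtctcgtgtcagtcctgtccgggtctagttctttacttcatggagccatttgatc
Pola1: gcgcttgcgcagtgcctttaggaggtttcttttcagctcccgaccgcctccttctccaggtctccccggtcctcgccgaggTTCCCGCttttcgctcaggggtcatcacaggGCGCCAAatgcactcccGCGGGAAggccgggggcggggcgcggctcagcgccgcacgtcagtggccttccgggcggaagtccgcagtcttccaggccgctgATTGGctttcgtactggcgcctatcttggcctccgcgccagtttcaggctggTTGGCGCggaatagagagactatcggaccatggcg

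In Pola1 there were 4 E2F words, 3 of them upstream of the start and 1 at 16 downstream. In Mcm7 and in Prim1 an E2F word ran into a CCAAT box, so that they share at least the last base of the E2F word; member windows held 4 such overlaps between different motifs. Mcm7 also held a CHR word, at -173, far from the start compared with that of Ttk.

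Over the classes, 15 of 19 mitosis genes (78.9%) had a CHR word, against 4 of 16 replication genes (25%) and 17.2% of the 12209 tested genes with a window. All 15 also had a CCAAT box in the same window, as did 3 of 16 replication genes and 7.09% of the tested genes. E2F words ran the other way, in 11 of 16 replication genes (68.8%) and 3 of 19 mitosis genes (15.8%), against 17.0% of the tested genes. CCAAT boxes alone separated the classes less, with 17 of 19 mitosis genes (89.5%), 11 of 16 replication genes (68.8%) and 42.4% of the tested genes. Over all 32851 windows of the table the shares were 19.2% for CHR, 37.4% for CCAAT and 9.57% for E2F. The 3 mitosis genes with an E2F word were Mki67, Cdk1 and Ccnb1, and the replication genes with a CHR word were Mcm2, Mcm7, Cdc45 and Fen1. The 2 regulators with a window, E2f1 and Ccne1, had none of the 3 motifs. The median base composition was close in the classes, 57% G or C in replication windows and 58.7% in mitosis windows, against 59.3% over windows of tested genes. Of the 22 CHR matches in mitosis genes, 14 were centred within 50 bases of the start. These counts are descriptions of letters in fixed windows, not of bound sites.

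**Figure D1:**
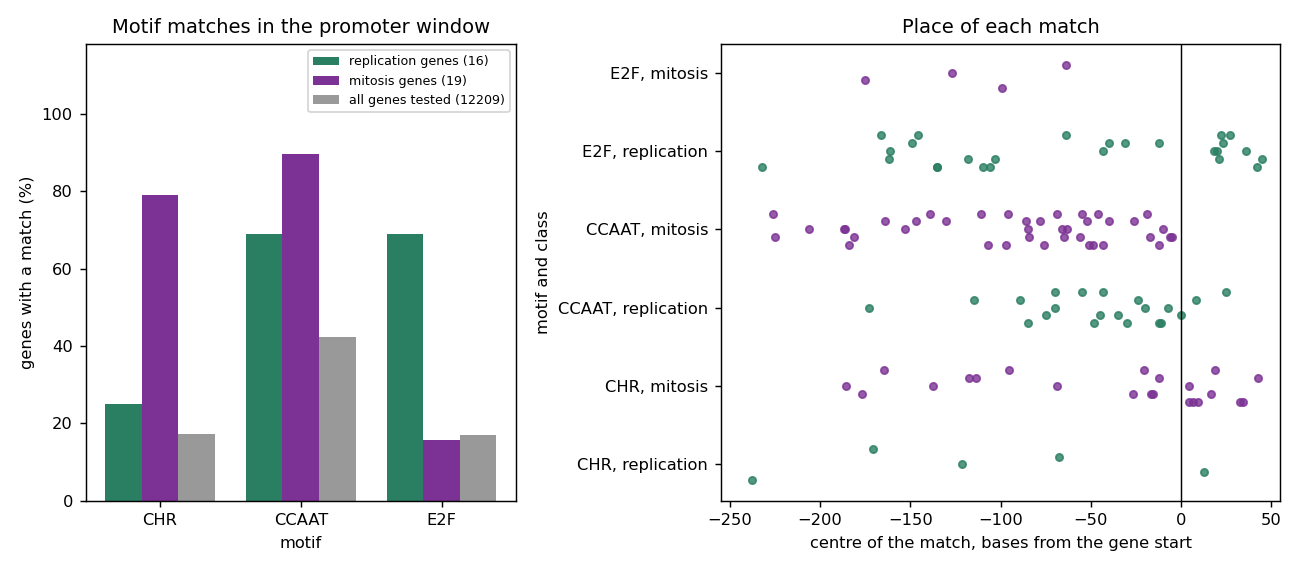
Left, the percentage of replication genes (16), mitosis genes (19) and all tested genes with a window (12209) that held each motif. Right, the centre of every match in bases from the annotated gene start, with 1 point per match: CHR matches of mitosis genes gather near the start, 14 of 22 within 50 bases, and E2F matches are mostly those of replication genes, 26 against 4.

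On the arrays, all 45 measured genes read lower on average in metformin than in control (43 of 45 when arrays were scaled by their median, where Pcna and Ccne2 read higher), but none passed the test across all genes. The median log2 difference, metformin minus control, was -0.70, a 1.63-fold lower signal. It was -0.52 (1.44-fold) over the 19 replication genes, -0.75 (1.68-fold) over the 22 mitosis genes and -0.72 over the 4 regulators, against 0.06 over all genes tested. The limma fit with Benjamini-Hochberg adjustment called 0 of 45 members and 0 of 21649 genes (0%), and the smallest adjusted p rounded to 1 in both. At an unadjusted p under 0.05 it held 0 members and 347 genes, 272 of which (1.26%) were lower in metformin. The 95% interval of the difference held 0 for each of the 45 members. Any lower reading was common, at 42.4% of all genes, and 6.65% of all genes lay below the members' median difference.

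A stricter description asks whether both metformin arrays lay below both control arrays. They did so for 18 of 45 members, 8 of 19 replication genes, 8 of 22 mitosis genes and 2 of 4 regulators, while this held for 8.57% of all genes. The count of 18 depends on the scaling and on single arrays: it was 5 with median scaling (5.14% of all genes), 44 without control 1 (25.2% of all genes) and 43 without metformin 2 (31.7% of all genes). The opposite, both metformin arrays above both controls, held for 12.3% of all genes and for 0 members. RNA of the whole ileum was measured, so fewer dividing cells and less of these RNAs per cell cannot be told apart. Signals below are log2 values relative to the 75th percentile of the same array, in the order control 1, control 2, metformin 1, metformin 2, and each difference is given with limma's standard error (SE) from 2 arrays a group. Signals of different probes are not compared.

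**Figure D2:**
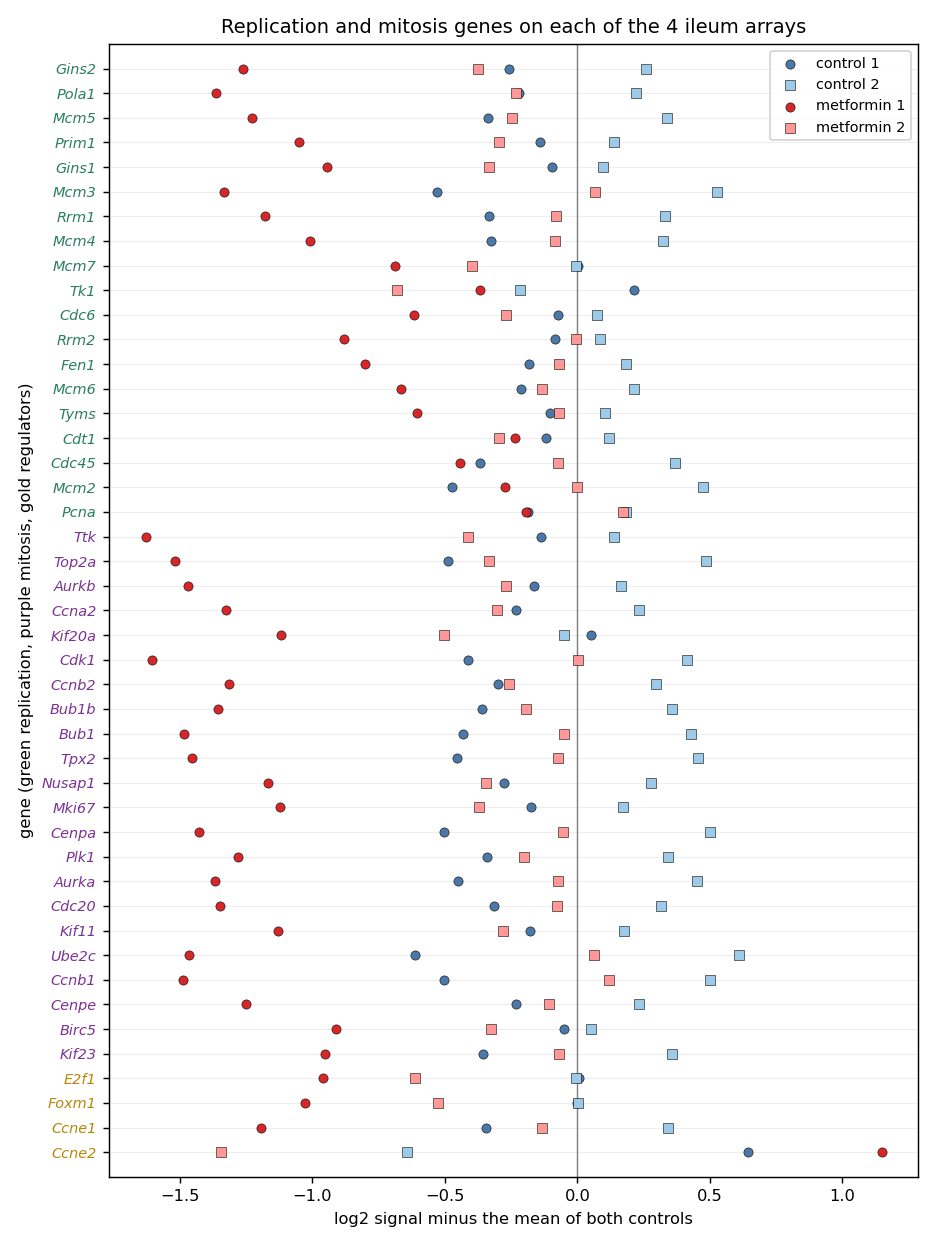
Each row is 1 gene and each point 1 array; the horizontal axis is the log2 signal minus the mean of both controls, and gene names are green for replication, purple for mitosis and gold for regulators. Metformin 1 is the lowest point for 41 of the 45 genes (28.4% of all genes) and control 2 the highest for 40 (19.8% of all genes), while metformin 2 often lies between the controls.

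The helicase genes came first in the replication class. All 6 MCM genes read lower, with a median of -0.54, yet only Mcm7 separated the groups. Mcm7, one of the 6 subunits of the ring, read 2.06, 2.06, 1.37 and 1.66, a difference of -0.54 (SE 0.29, unadjusted limma p 0.129). Both controls were nearly equal and both metformin arrays lay below them. Mcm2, a subunit of the same ring, read -0.67, 0.27, -0.47 and -0.20, a difference of -0.14 (SE 0.43). Here control 1 was the lowest array, the only member for which this was so. Mcm3, Mcm4, Mcm5 and Mcm6 differed by -0.63, -0.55, -0.74 and -0.40, with metformin 2 between the controls for Mcm3, Mcm4, Mcm5 and Mcm6 alike.

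The loading factors Cdt1 and Cdc6 and the activators Gins1, Gins2 and Cdc45 all read lower. Cdt1, which brings MCM to the origin, read 2.23, 2.46, 2.11 and 2.05, a small difference of -0.26 (SE 0.29) without overlap. Cdc6, its partner in loading, read -2.85, -2.70, -3.39 and -3.05, a difference of -0.44 (SE 0.30), again without overlap. Gins2, a GINS subunit, read -2.65, -2.14, -3.65 and -2.77 and had the largest difference of the class, -0.82 (SE 0.44, unadjusted limma p 0.130). Gins1 read -1.07, -0.87, -1.91 and -1.30, a difference of -0.64 (SE 0.35). In both GINS genes metformin 1 was the lowest array, and metformin 2 lay between it and control 1. Cdc45, which joins GINS on the helicase, differed by -0.26 (SE 0.39) with overlapping groups.

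At the fork, primer synthesis and the sliding clamp did not read alike. Pola1, the catalytic subunit of DNA polymerase alpha, read -0.84, -0.40, -1.98 and -0.85, a difference of -0.80 (SE 0.49). Prim1, the primase subunit that works with it, read 0.74, 1.02, -0.17 and 0.59, a difference of -0.67 (SE 0.38). For both, metformin 1 stood far below the rest, and for Pola1 metformin 2 was barely below control 1. Pcna, the clamp that holds polymerases on DNA, read 3.53, 3.90, 3.52 and 3.88, the smallest difference of all members at -0.01 (SE 0.32). The arrays numbered 1 were nearly equal and so were those numbered 2, whichever group they belonged to. The 95% interval for Pcna ran from -0.88 to 0.86, a span that includes the differences of the other replication genes. Fen1, which trims flaps from Okazaki fragments, differed by -0.43 (SE 0.39).

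The 4 genes of deoxynucleotide supply had a median difference of -0.48. Rrm2, the regulatory subunit of ribonucleotide reductase, read 0.85, 1.02, 0.06 and 0.93, a difference of -0.44 (SE 0.41), with metformin 2 between the controls. Rrm1, the large subunit, differed by -0.63 (SE 0.51) and Tyms, thymidylate synthase, by -0.34 (SE 0.33). Tk1, the thymidine kinase of the salvage pathway, read 1.39, 0.96, 0.81 and 0.50, a difference of -0.52 (SE 0.33). It separated the groups but with a different order, control 1 highest and metformin 2 lowest.

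In the mitosis class every measured gene had its lowest signal on metformin 1, and 21 of 22 had the highest on control 2. Mki67, the proliferation marker Ki-67 that coats mitotic chromosomes, read 2.79, 3.14, 1.85 and 2.59, a difference of -0.75 (SE 0.39, unadjusted limma p 0.121). The groups did not overlap, and the 95% interval ran from -1.79 to 0.29. Top2a, the topoisomerase that untangles sister chromatids, read -0.50, 0.47, -1.53 and -0.34, a difference of -0.92 (SE 0.58), with metformin 2 between the controls. Both genes, like Ccna2, are also active in S phase, and without these 3 the class median was -0.74.

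The cyclins and their kinase differed by a median of -0.79. Cdk1, the kinase that drives entry into mitosis, read 0.11, 0.94, -1.08 and 0.53, a difference of -0.80 (SE 0.67). Ccnb1, cyclin B1, its partner, read 0.43, 1.43, -0.56 and 1.05, a difference of -0.68 (SE 0.69). For both, metformin 2 was at or above the control mean, and the difference rested on metformin 1. Ccna2, cyclin A2, read 1.28, 1.74, 0.19 and 1.21, a difference of -0.81 (SE 0.47), without overlap but with metformin 2 close to control 1. Ccnb2 differed by -0.79 (SE 0.49). The APC/C genes Cdc20, its activator, and Ube2c, its ubiquitin-conjugating enzyme, differed by -0.71 (SE 0.55) and -0.70 (SE 0.71), with overlapping groups.

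Kinases of the spindle and its checkpoint included the largest difference of all 45 genes. Ttk, the checkpoint kinase Mps1, read -4.79, -4.51, -6.28 and -5.06, a difference of -1.02 (SE 0.50, unadjusted limma p 0.104), a 2.03-fold lower signal. Both metformin arrays lay below both controls, metformin 1 by far the more. The Ttk probe was dim, though well above background on all 4 arrays. The other checkpoint genes Bub1 and Bub1b differed by -0.77 and -0.78 with metformin 2 between the controls. Aurkb, the kinase of the chromosomal passenger complex, read -4.03, -3.71, -5.34 and -4.14, a difference of -0.87 (SE 0.50). Birc5, survivin, which belongs to the same complex, read 3.39, 3.49, 2.53 and 3.12, a difference of -0.62 (SE 0.34). Neither gene's groups overlapped. Plk1 and Aurka, kinases of the centrosome and spindle poles, differed by -0.74 and -0.72 and did overlap.

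Of the 5 genes of the spindle and of cytokinesis, 3 separated the groups. Kif20a, a kinesin of the central spindle, read 0.10, -0.00, -1.07 and -0.45, a difference of -0.81 (SE 0.34, unadjusted limma p 0.0725), the smallest p of the mitosis class. Its controls were almost equal, unlike those of most mitosis genes. Kif11, the kinesin Eg5 that pushes spindle poles apart, read -2.19, -1.84, -3.14 and -2.30, a difference of -0.71 (SE 0.41). Nusap1, which bundles spindle microtubules, read -0.37, 0.18, -1.26 and -0.44, a difference of -0.76 (SE 0.43). In both, metformin 2 was just below control 1. Kif23, a kinesin needed for the midbody, read -0.55, 0.16, -1.15 and -0.26 and had the smallest difference of the class, -0.51 (SE 0.47). Tpx2, the activator of Aurka on the spindle, differed by -0.76, and the centromere genes Cenpa and Cenpe by -0.74 and -0.68, with overlapping groups.

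Among the regulators, both transcription factors separated the groups and had the smallest p-values of the 45 genes. E2f1, an activator of S phase genes, read -2.10, -2.11, -3.07 and -2.72, a difference of -0.79 (SE 0.30, unadjusted limma p 0.0520). Foxm1, an activator of mitosis genes, read -1.37, -1.36, -2.39 and -1.89, a difference of -0.78 (SE 0.32, unadjusted limma p 0.0669). In both the controls were nearly equal and both metformin arrays lay below them. Ccne1, cyclin E1, read -0.25, 0.43, -1.11 and -0.04, a difference of -0.66 (SE 0.51), with metformin 2 between the controls. Ccne2, cyclin E2, read -5.74, -7.02, -5.23 and -7.72, a difference of -0.10 (SE 0.98). Its order followed the sample number and not the group, and its probe was well above background on 1 of 2 metformin arrays.

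Within the array design 7 members had more than 1 kept probe, which gave 10 further probes. All 10 read lower in metformin, as the tested probe did. The sizes varied: the second Mki67 probe differed by -0.82 and the others of Ccnb1 by -0.81 and -0.95, but a second Tpx2 probe differed by -0.19. Of the other Cdk1 probes 1 differed by -0.80 and 1 by only -0.05.

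**Figure D3:**
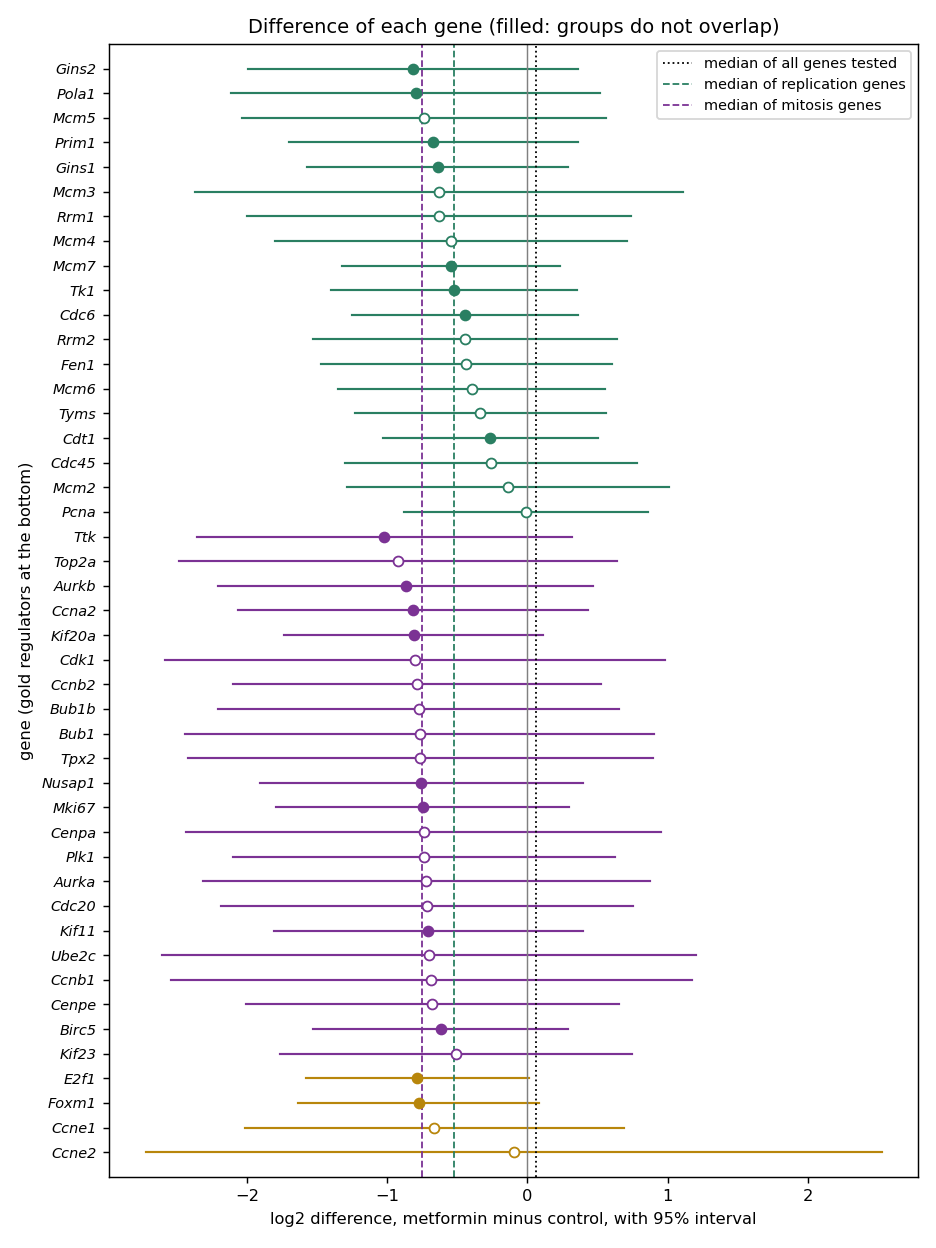
The log2 difference of each measured gene, metformin minus control, with its 95% interval from limma; filled points mark the 18 genes whose groups do not overlap, and vertical lines mark the medians of all genes (0.06), replication genes (-0.52) and mitosis genes (-0.75). Every interval includes 0, and the mitosis points lie in a narrower band, from -1.02 to -0.51, than the replication points, from -0.82 to -0.01.

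The contrast between the classes did not stand clear of the spread of the arrays. The mitosis median was below the replication median by 0.23 on the log2 scale, and 21 of 22 mitosis genes lay below the replication median, as did 9 of 19 replication genes by construction. The middle part of the replication genes, between the quartiles, ran from -0.64 to -0.37, and that of the mitosis genes from -0.80 to -0.71. Set against each gene's control mean, the replication median was -0.19, 0.19, -0.80 and -0.13 on control 1, control 2, metformin 1 and metformin 2, and the mitosis median was -0.33, 0.33, -1.35 and -0.20. Mitosis minus replication was thus -0.14, 0.14, -0.55 and -0.06 on these arrays. The pooled standard deviation of these values between arrays of a group was 0.28. It is not on the same measure as the 0.23, which was taken from differences of group means. The controls alone differed by a median of 0.37 in replication genes and 0.65 in mitosis genes, so the class that read lower in metformin also varied more between the controls.

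Most of the difference in replication and mitosis genes rested on metformin 1. On it the members' median signal was 2.25-fold below the control mean, 1.74-fold for replication and 2.55-fold for mitosis genes. On metformin 2 it was 1.15-fold, 1.10-fold and 1.15-fold below. The 4 regulators differed less between these arrays, at 1.99-fold below on metformin 1 and 1.48-fold below on metformin 2. Metformin 1 was the lowest of the 4 arrays for 41 of 45 members, against 28.4% of all genes, and control 2 was the highest for 40 of 45, against 19.8% of all genes. Metformin 1 lay below both controls for 43 of 45 (31.7% of all genes), and metformin 2 for 19 of 45 (22% of all genes). Without metformin 1 the members' median difference was -0.20, with 40 of 45 lower against 46.9% of all genes, and the mitosis and replication medians were -0.20 and -0.13. Mcm3, Pcna, Ccnb1, Cdk1 and Ube2c were the 5 that then read higher. The gap between the metformin arrays exceeded the gap between the groups for 36 of 45 members, and the gap between the controls did so for 18 of 45.

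Genes of the same pathways outside the list read much the same way. Of 39 measured genes among 40 other replication genes (origin recognition, polymerases, clamp loader, histone deposition), 36 were lower, against 42.4% of all genes. Without overlap 14 were lower (8.57% of all genes), and only Orc3, at 0.19, was higher (12.3% of all genes). The median was -0.46, and relative to the control mean -0.64 on metformin 1 and -0.15 on metformin 2. The smallest p-values there belonged to Pole, the leading-strand polymerase (-0.82, SE 0.37), Timeless, a fork protection factor (-0.66, SE 0.30), and Chaf1a, a histone chaperone at the fork (-0.60, SE 0.31). Of 47 measured genes among 48 other mitosis genes, 47 were lower, 19 without overlap (8.57% of all genes), with a median of -0.69. Relative to the control mean that list's median was -1.17 on metformin 1 and -0.22 on metformin 2. Ncapd2, a condensin subunit, read 1.67, 1.82, 0.89 and 1.07, a difference of -0.76 (SE 0.29, unadjusted limma p 0.0497), with both metformin arrays clearly below both controls. Ckap2l, a spindle protein, differed by -1.22 (SE 0.47) and Cenph, a kinetochore protein, by -0.76 (SE 0.31). The adjusted p was 1 for all of these, as in the members.

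The regulators outside the list were more mixed. Of 26, 18 were lower, 6 without overlap (8.57% of all genes), and 8 were higher, 2 without overlap (12.3% of all genes). The median was -0.31, and relative to the control mean -0.51 on metformin 1 and -0.08 on metformin 2. Chek2, a DNA damage kinase (-0.50, SE 0.27), E2f7, an E2F repressor (-0.64, SE 0.36), and Ccnd1, cyclin D1 (-0.85, SE 0.48), had the smallest p-values. Ccnd1 read 1.39, 1.81, 0.21 and 1.29, so that it too was lowest on metformin 1. A list of 13 inhibitors and p53 pathway genes had a median of 0.03, with 5 lower and 8 higher. The 8 include Mdm2 (0.25), a negative regulator of p53 and not an inhibitor of the cell cycle. Relative to the control mean the list's median was 0.17 on metformin 1 and 0.00093 on metformin 2. Cdkn1a, the inhibitor p21, read 3.02, 3.35, 3.53 and 3.83, a difference of 0.49 (SE 0.31). It was the only gene of that list with both metformin arrays above both controls (12.3% of all genes). Btg2, an antiproliferative gene, differed by 0.51 (SE 0.41) and Trp53, the tumour suppressor p53, by -0.30 (SE 0.32). None of these lists held a called gene.

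**Figure D4:**
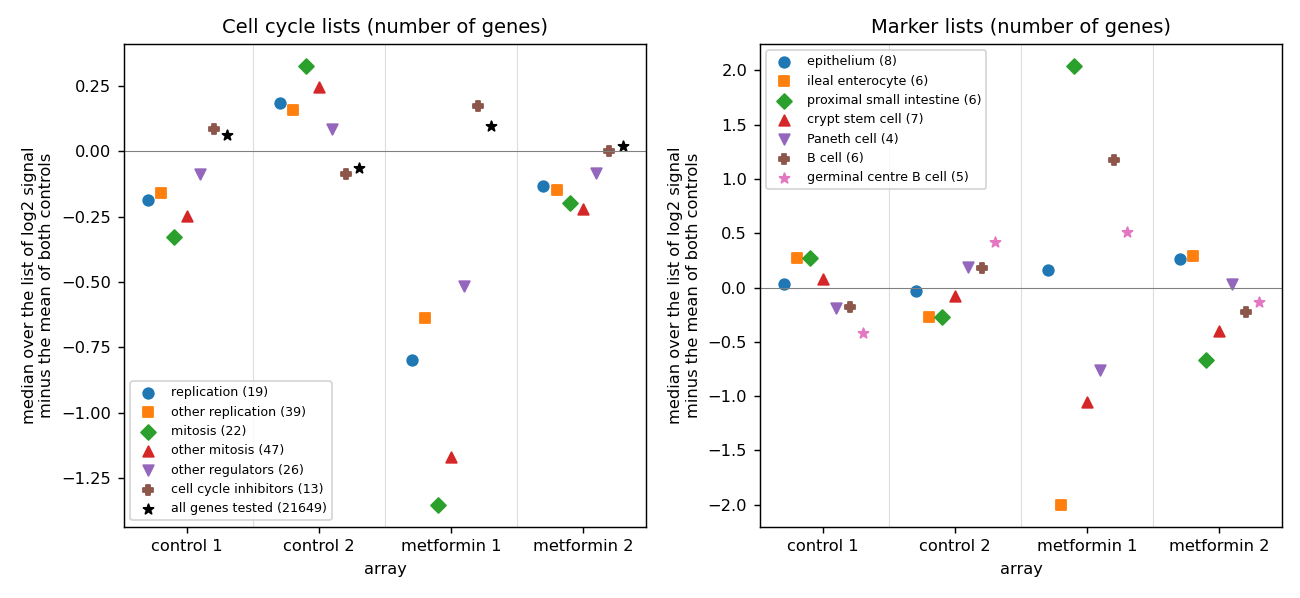
Median over each list of the log2 signal minus the mean of both controls, for each array, with the number of genes in brackets; left the cell cycle lists, right marker lists. Mitosis lists reach -1.35 and -1.17 on metformin 1, while all genes tested stay at 0.10, and on the same array the markers of ileal enterocytes (-2.0) and of the proximal small intestine (2.04) lie far from the other arrays.

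As lists, the ileal enterocyte and proximal small intestine markers also stood apart on metformin 1. Summed signals of a list are given as log2 of the sum. The epithelial markers (8 of 8 measured, among them Epcam and Cdh1) summed to 9.82 to 9.89 in control and 10.08 to 10.15 in metformin. Ileal enterocyte markers were present in all samples, 6 of 6, but their sum was 8.88 to 9.48 in control, 7.36 on metformin 1 and 9.37 on metformin 2. Fabp6, which carries bile acids inside ileal cells, read 8.94, 8.29, 4.16 and 8.69. Markers of the proximal small intestine (6 of 8 measured; Pdx1 and Cyp8b1 were not kept) summed to 6.88 to 8.04 in control, 9.81 on metformin 1 and 6.45 on metformin 2. Metformin 1 thus had the lowest ileal and the highest proximal sum, as well as the lowest proliferation signal. The sums follow the brightest genes of a list, and not all its genes went with them. Among proximal markers Lct, Fabp1, Gata4 and Ada were highest on metformin 1, whereas Cybrd1 and Slc40a1 were lowest there. Ada read 6.50, -0.91, 7.59 and -0.58, so it followed the sample number. Of the ileal markers Cubn was highest on metformin 1, and the other 5 were lowest there. The part of these in the result was not tested.

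Crypt stem cell markers read in the same direction as the proliferation genes. Of 7 measured of 8 (Olfm4 was not kept), 6 were lower, 4 without overlap (8.57% of all genes), with a median of -0.97. Relative to the control mean the median was -1.06 on metformin 1 and -0.40 on metformin 2. The sum was 4.16 to 4.24 in control, 3.32 on metformin 1 and 3.90 on metformin 2. Lgr5, a receptor known as a marker of the stem cells at the crypt base, read -0.29, 0.08, -1.80 and -0.36, a difference of -0.97 (SE 0.57). The Paneth cell list, another crypt lineage, had 4 of 4 measured genes lower with a median of -0.56. Among them Lyz1 differed by only -0.0039 (SE 0.31), and only Ang4 (-0.89) was lower without overlap (8.57% of all genes). The list summed to 9.08 to 9.17 in control and 8.73 to 9.08 in metformin. Relative to the control mean its median was -0.76 on metformin 1 and 0.04 on metformin 2. Goblet cell markers had a median of 0.06 and summed to 9.70 to 9.81 in control and 9.86 to 10.02 in metformin.

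Lymphocytes of the ileum can divide too, and markers of B and T cells read higher in metformin on average, through metformin 1: relative to the control mean the B and T cell medians were 1.17 and 1.68 on metformin 1 but both -0.23 on metformin 2. B cell markers were higher for 6 of 6 measured genes (of 7), with a median of 0.49, and summed to 1.54 to 2.00 in control, 2.98 on metformin 1 and 1.60 on metformin 2. Germinal centre B cell markers had a median of 0.19 and T cell markers one of 0.72, summing to 2.61 to 2.75 and 4.04 to 5.08 in control and to 3.06 and 6.02 on metformin 1 and 2.52 and 4.31 on metformin 2. Macrophage and plasma cell lists had medians of 0.51 and -0.15, with sums of 1.82 to 2.15 and 5.49 to 6.11 in control and 2.14 to 2.84 and 5.78 to 6.46 in metformin. Stromal lists differed more than the proliferation genes. The fibroblast list was lower without overlap for 8 of 8 genes (8.57% of all genes). Among them, Dpt was kept through the controls alone (well above background on 0 of 2 metformin arrays) and so had to differ. The list's median was -2.08, with sums of 4.11 to 5.15 in control and 2.10 to 3.04 in metformin. Smooth muscle markers had a median of -3.13, with a sum of 7.64 on control 1, 3.14 on control 2 and 2.43 to 2.97 in metformin. Adipocyte markers had a median of -2.97, with sums of 3.85 to 4.03 in control and 2.81 to 4.56 in metformin. Of 7 measured, 6 were lower, among them Plin1, well above background on 1 of 2 metformin arrays. The other, Cidec, read 3.29, 2.76, 4.46 and 2.72 and made up most of the sum on metformin 1. Of 6 exocrine pancreas markers 3 were measured, with a median of 0.44 and sums of -2.84 to -2.69 in control and -2.38 to -2.35 in metformin, while the defining enzymes Cpa1, Prss2 and Pnlip were not kept. Of the 3, Cela3b was kept through the metformin arrays alone (well above background on 0 of 2 control arrays) and so had to differ. The part of these lists in the lower proliferation signal was not tested.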

How the data were processed

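RNA from the ileum, 2 samples a group, was measured on 4 single-colour Agilent arrays. The deposited scanner files hold linear intensity values that Agilent Feature Extraction 10.7.3.1 had background-subtracted within each array, per the file headers, with no scaling between arrays. The authors also deposited a table described as normalized, whose intensity equals the raw median spot signal for all 39030 probes with 1 spot; it served only as an alternative. The headers name another genome build than the RefSeq tables used here (GRCm38.p6), which gave gene names and promoters only.

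Outlier-flagged spots were left out, spots of a probe averaged, and log2 signal taken minus the array's 75th percentile over 39429 non-control probes, of which 27508 matched 1 symbol. Probes well above background on both arrays of a group were kept (26441), and the brightest probe per gene was tested with limma 3.58.1 in R 4.3.3 (lmFit and eBayes, 2 residual and 2.43 prior degrees of freedom) with Benjamini-Hochberg adjustment over 21649 genes and a threshold of 0.05. The code of the fit was checked on simulated data with a capped spread and with differences larger than those of the members. That check says nothing on the power of the fit here. With 4 arrays, their number limits the precision. Values on each array are given for members whose groups do not overlap, for the extremes of each class and for well-known genes of each class and regulator, and of other pathway lists the 3 genes of smallest p are named with their differences.

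The members and all lists were chosen with earlier results of these data known, so class medians and motif counts carry no test. Alternatives changed background correction, scaling, filter, probe choice, moderation, source table, promoter window and samples.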

Additional observations from a re-analysis of the deposited data

How the results depend on the processing

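No gene was called by limma under any setting run, including those that left out 1 array (114 to 1566 genes at an unadjusted p under 0.05), and with 2 arrays a group this says little on stability. The members' median stayed below 0 in all of them, from -1.17 without metformin 2 to -0.20 without metformin 1. Members lower without overlap numbered 18, but 17 with normexp (5.28% of all genes), 13 with quantile normalization (7.82%) and 5 with median scaling (5.14%). In the deposited table unscaled they numbered 8 (17.8% of all genes, the same share as of the members). With 1 array left out they numbered 18 to 44 (44 without control 1, 43 without metformin 2, against 25.2% and 31.7% of all genes). With 1 array left out, the replication median ran from -0.80 to -0.13 and mitosis minus replication from -0.55 to -0.064. Median scaling moved the median of all genes from 0.06 to 0.19 and the deposited table unscaled to -0.17.

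Leaving out 1 array turned the sign of Mcm2 (-0.61 to 0.33), Mcm3 (-1.33 to 0.068), Pcna (-0.20 to 0.17), Cdc45 (-0.63 to 0.11), Ccnb1 (-1.49 to 0.12), Cdk1 (-1.60 to 0.0033), Ube2c (-1.46 to 0.062) and Ccne2 (-1.34 to 1.15), given as lowest to highest. Pcna was 0.12 with median scaling, Cdc45 0.031 with normexp, and Ccne2 0.26 with normexp, 0.029 with median scaling and 0.25 in the deposited table scaled. In the window from 100 bases before the start, CHR words were in 2 replication and 15 mitosis genes (7.25% of tested genes), and E2F words in 8 replication genes and 1 mitosis gene (10.2%). A CHR word with a CCAAT box was there in 13 mitosis genes, down from 15. The shorter window holds fewer bases. For the other changes the cause was not tested.

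With the replicate number as a block, 0 genes were called, with a smallest adjusted limma p of 0.634, and 1566 genes and 26 members had an unadjusted p under 0.05, against 347 and 0 without it. Deviations from the group mean correlated by 0.56 between arrays of the same number, but nothing says that a number marks a shared animal or batch, and 2 pairs do not settle it. Normexp was run on the median spot signal, in place of the mean, a choice made after the data were seen. By the background rule signal limits 2 genes: Ccne2 was not well above background on 1 array, and Cenpf was not kept. Ttk, Aurkb and Cdc45 passed on all 4 arrays but were dim, at -6.28, -5.34 and -5.22 on metformin 1. At such levels a further Foxm1 probe (-6.76 to -5.33) passed on 2 arrays and a further Cdk1 probe (-6.25 to -5.94) on 4.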
